A study of Homo sapiens with 42 samples.

Results

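RNA levels were compared between the 2 neil3 lines of HAP1 cells, neil3_1 (line 1) and neil3_2 (line 2), which carry the same genotype label. All libraries named neil3_1 or neil3_2 were taken, 4 per line and 8 of the 42 libraries in the series. In each line 2 libraries (replicates A and B) came from cells kept in media and 2 from cells given 200 µM buthionine sulfoximine (BSO) for 48 h, begun after 4 h. The other 9 cell names in the series are wt, neil1, neil2 and triple-knockout (neil123) HAP1 cells under the same treatments. Of these, the 8 lettered libraries of wt 1.1 and wt 1.3 (media or BSO, 2 each) and the 8 of neil123_1 and neil123_2 are set beside the neil3 lines. Ranges over the 9 names also take in libraries without a replicate letter, while all neil3 libraries are lettered. The letters are named biological replicates in the labels. How each line was derived, and whether it is a single clone, is not given in the sources used here, so every difference below is between 2 named cell stocks.

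HAP1 is a near-haploid human cell line that grows attached and derives from the leukaemia line KBM-7. NEIL3 is a DNA glycosylase: it cuts oxidized bases out of DNA as the first step of base excision repair, with a preference for single-stranded DNA, and it can unhook crosslinks at replication forks. BSO inhibits glutamate-cysteine ligase, the first enzyme of glutathione synthesis, and so empties the cell of its main small thiol. Knockout lines grown from single edited cells each carry their own genetic and epigenetic history, which is why independent lines of 1 genotype are compared.

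The neil3 libraries held 27.2 to 28.7 M reads each and 18264 to 18462 named genes with reads. In a principal component analysis of the 14415 genes tested, component 1 carried 59.7% of the variance and separated the lines. Component 2 carried 13% and separated media from BSO, and component 3 carried 11.9% and separated the replicate letters.

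NEIL3 itself (chromosome 4, 177309874 to 177371268) was read in both lines. Line 1 gave normalized values of 449 and 409.6 in media and 711 and 528 with BSO; line 2 gave 614 and 607 in media and 714 and 645 with BSO. Both media libraries of line 1 lay below all 4 libraries of line 2, while the BSO libraries of the lines overlapped. The mean was 524 ± 134 in line 1 and 645 ± 48.8 in line 2 (SD, n = 4 each), against 589.7 to 671 over the 8 wt libraries. NEIL3 missed the threshold between the lines at a log2 difference of -0.33 ± 0.11 (SE), with an adjusted p of 0.0797 in limma. An exact two-sided permutation of the line names within treatment gave p = 0.111, where the smallest p of the 36 splits is 0.0556. With the replicate letter as a block the adjusted p of NEIL3 was 0.00321, and without the line 1 BSO library A it was 0.00424. A count over the whole gene does not check an edit that leaves the transcript in place. NEIL1 and NEIL2, the related glycosylases, differed by 0.01 ± 0.08 and -0.15 ± 0.08 with adjusted p of 0.979 and 0.336. None of the 26 base excision repair genes tested was called, beside 10% of all genes tested.

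Between the lines 1447 of 14415 genes (10%) had an adjusted p under 0.05 (limma, Benjamini-Hochberg), and are called here. Line 1 was higher in 694 genes (4.81%) and line 2 in 753 (5.22%). The difference was a log2 of 1 or more, that is 2-fold on the log2(value + 1) scale, in 160 genes higher in line 1 and 245 higher in line 2, and 4 or more in 26 and 25. All 1447 differed in the same direction in media and with BSO. The calls were made on both treatments together, which favours genes that go the same way in both, so this count is no separate support. Over all genes tested, the 4 libraries of a line did not overlap those of the other in 1810 (12.6%), and 1210 of these were called. Media and BSO libraries of the same line and letter were correlated (limma gave 0.50 over genes, after line and treatment), and with 1 mean per line and letter 614 genes were called. With the replicate letter as a block 3212 genes were called, all 1447 among them.

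**Figure D1:**
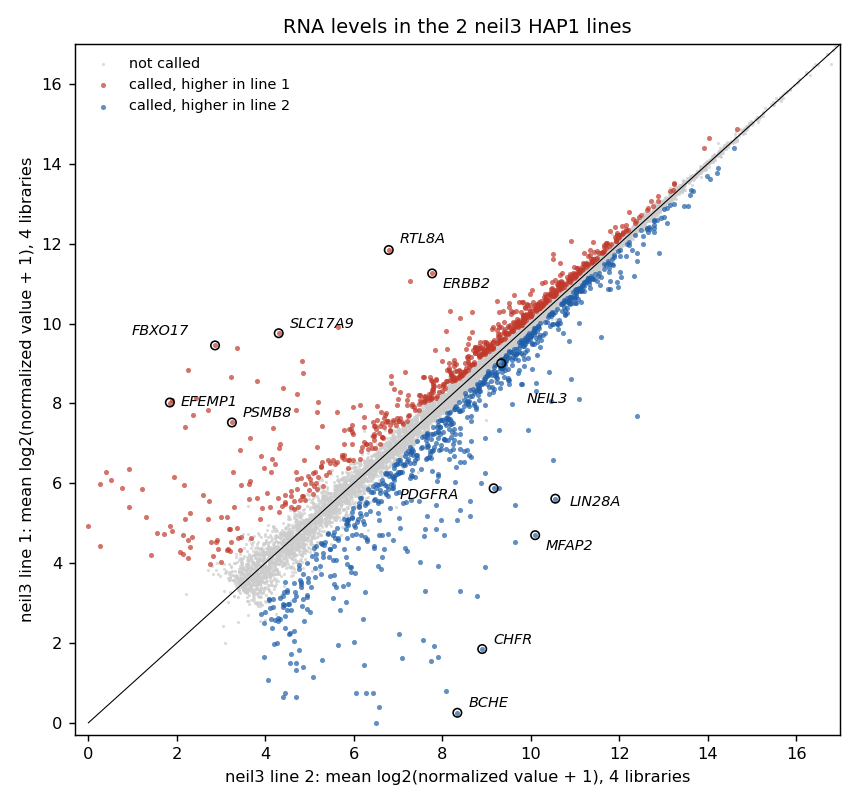
Mean log2(normalized value + 1) of each gene tested in line 2 (x axis) and line 1 (y axis), 4 libraries each. Grey points were not called; red points are the 694 genes higher in line 1 and blue points the 753 higher in line 2. ERBB2 and RTL8A lie far above the diagonal, and BCHE and CHFR far below it.

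The same layout called far fewer genes between the 2 wt names. There, 7 of 14381 genes (0.0487%) were called between wt 1.1 and wt 1.3, and 3 of these differed by a log2 of 1 or more. The replicate block gave 93 calls, and single left-out libraries 1 to 5. Between the triple-knockout lines neil123_1 and neil123_2, 834 of 14316 genes (5.83%) were called, 127 of them at a log2 difference of 1 or more. The triple-knockout count was 2097 with the replicate block and 268 with 1 mean per line and letter. Without the neil123_2 libraries BSO B or media B it was 505 or 542. Scaling to equal totals turned the triple-knockout split from 521 higher in line 1 and 313 higher in line 2 into 416 and 449. The 3 counts come from separate fits, and the difference between them was not tested.

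ERBB2 and PDGFRA, both receptor tyrosine kinases, differed in opposite directions. ERBB2 (HER2, the coreceptor of the epidermal growth factor receptor family; chromosome 17, 39688094 to 39728658) had values of 2237 and 2493 in media and 2477 and 2573 with BSO in line 1. In line 2 it had 201 and 203 in media and 233 and 234 with BSO. Every line 1 library was above every line 2 library, and the wt libraries, at 207 to 274, sat at the level of line 2. The log2 difference of ERBB2 was 3.48 ± 0.06 (SE, adjusted p = 6.85e-11). ERBB2 overlaps the neighbouring gene MIEN1, and the strand setting of the counting is not given.

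PDGFRA, the alpha receptor for platelet-derived growth factor (chromosome 4, 54229293 to 54298245), was higher in line 2. Its values were 93.6 and 37.0 in media and 78.6 and 40.2 with BSO in line 1, against 861 and 435 in media and 753 and 377 with BSO in line 2. In all 4 groups the A library of PDGFRA was the higher one. The groups did not overlap, and the wt libraries (388 to 1198) lay near line 2. The log2 difference of PDGFRA was -3.29 ± 0.34 (adjusted p = 6.72e-05). VEGFC, a ligand of lymphatic endothelial growth, averaged 33.2 ± 6.03 in line 1 and 252 ± 10.3 in line 2, and KIT, the stem cell factor receptor, 343 ± 41.4 and 558 ± 56.6. Of the 34 growth factor and receptor kinase genes tested, 3 were called higher in line 1 and 12 higher in line 2, with a median log2 difference of -0.14 beside 0.00 over all genes tested, and 19 were not called. The called share was 44.1%, beside 10% of all genes. PDGFRB, the beta receptor, was called at -2.39 ± 0.52 (adjusted p = 0.0124), but not without line 2 library A of media (0.0539) or of BSO (0.0519).

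**Figure D2:**
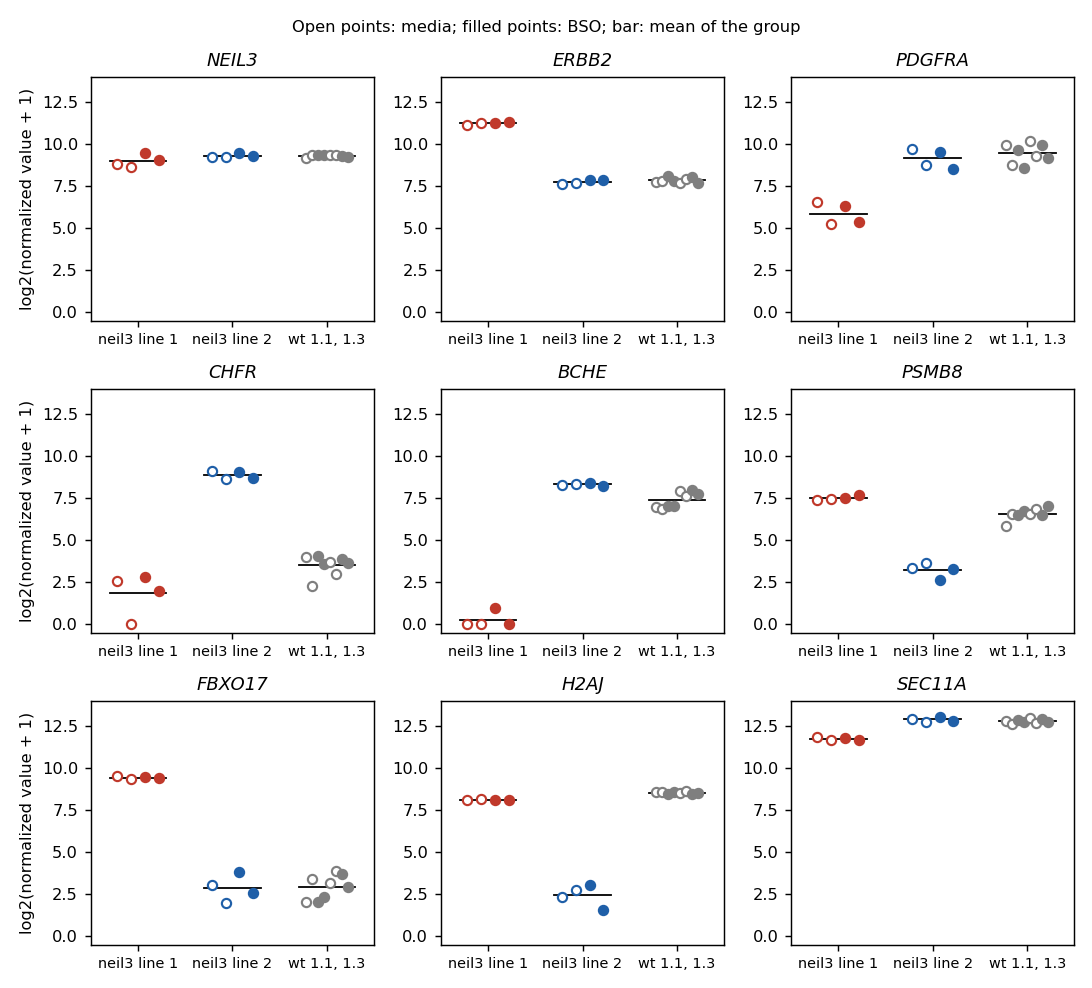
log2(normalized value + 1) of 9 genes in each library of line 1 (red), line 2 (blue) and wt 1.1 and 1.3 (grey), open points for media and filled points for BSO, with the mean of each group as a bar. NEIL3 overlaps between the lines; the other 8 genes do not, and the wt libraries lie near line 2 for ERBB2, PDGFRA, FBXO17 and SEC11A and nearer line 1 for PSMB8, H2AJ and CHFR.

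Mesenchymal and matrix genes were called in both directions, more of them higher in line 2. Of 16 mesenchymal markers tested, 6 were called higher in line 2 and 2 in line 1, with a median log2 difference of -0.24. Among 58 other matrix proteins and matrix enzymes, 13 were higher in line 2 and 5 in line 1 (median -0.06). In these lists 8 and 40 genes were not called, and over all genes 5.22% were higher in line 2. MFAP2, a microfibril protein named for the size of its difference and on neither list, was read at 17 to 34.3 in line 1 and 1024 to 1211 in line 2, with wt between them at 164 to 333. MMP2, a gelatinase, averaged 9.24 ± 3.02 in line 1 and 207 ± 84.3 in line 2, with a wt median of 19.8. POSTN (periostin) averaged 12.8 ± 12 and 528 ± 337, with an adjusted p of 0.000447. The A library of POSTN was again above the B library in each group, yet the lowest line 2 value, 202, was above the highest of line 1, 24.2. Of the 5 matrix genes higher in line 1, EFEMP1 (fibulin-3) differed most, at 191 to 328 in line 1 and 0.992 to 3.89 in line 2. The mesenchymal markers higher in line 1 were THY1, a surface marker of fibroblasts, at 283 to 540.2 and 2.91 to 14.6, and TWIST2, a transcription factor of mesenchyme, at 17.1 to 27.2 and 0 to 1.04. The mesenchymal list thus held called genes in both directions. It shares PDGFRA and PDGFRB with the growth factor list.

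Collagens and laminins were called in both directions. Of 30 collagen and laminin genes tested, 6 were called higher in line 1 and 5 in line 2 (36.7% called, beside 10% of all genes tested). LAMA2, the laminin alpha chain of muscle and nerve, averaged 446 ± 65.9 in line 1 and 1363 ± 76.5 in line 2, a log2 difference of -1.62 ± 0.10 (adjusted p = 1.13e-06). LAMA4, the alpha chain of vessel walls, averaged 277 ± 33.4 and 129 ± 25.4, a difference of 1.11 ± 0.11. COL9A1, a cartilage collagen chain, was at 1.96 to 9.07 in line 1 and 60.5 to 99.5 in line 2.

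COL4A3 and COL4A4, chains of the collagen IV of the kidney filter, lie head to head on chromosome 2 and were both higher in line 1. MFF, the next tested gene after COL4A3, was also called higher in line 1. The group thus held 3 called neighbours (226967360 to 227357836), and the difference was not particular to the collagen pair. COL4A4 (226967360 to 227164488) was read at 852 and 761 in media and 1165 and 983 with BSO in line 1. In line 2 COL4A4 was read at 438 and 496 in media and 652 and 677 with BSO. COL4A3 (227164624 to 227314792) averaged 324 ± 26.4 in line 1 and 223 ± 53.4 in line 2. Neither gene overlapped between the lines, at log2 differences of 0.74 ± 0.07 and 0.56 ± 0.12 (adjusted p = 6.42e-05 and 0.00961). With 1 mean per line and letter COL4A3 had an adjusted p of 0.0835. The pair was picked out after its values were seen, and the stretch between the starts is printed because it separates the starts of 2 genes that were both called:
COL4A4-COL4A3 interval, chr2:227164489-227164623, plus strand: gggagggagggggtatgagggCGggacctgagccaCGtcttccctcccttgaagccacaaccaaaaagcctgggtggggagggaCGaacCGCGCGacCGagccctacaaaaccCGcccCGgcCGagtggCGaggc
These 135 bases are from RefSeq (GRCh38.p14), and capitals mark each CG, a motif that reads the same on both strands. The interval holds 11 of them. Of 35114 RefSeq windows of that length ending at a gene start, 36.8% held 11 or more and 88% at least 1, with a median of 6.

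Among adhesion genes the lists differed. Of 23 cadherins and delta protocadherins tested, 11 were called higher in line 2 and 1 in line 1 (median log2 difference -0.27). PCDH7, a delta protocadherin, was at 14.7 to 39.2 in line 1 and 80.4 to 189 in line 2. The exception was CDH3 (P-cadherin), at 157 to 180.1 in line 1 and 25.8 to 56.3 in line 2. Of 16 integrins 2 were higher in line 1 and none in line 2, and of 20 clustered protocadherins 3 were higher in line 1 and 2 in line 2. Called shares were 52.2% of the cadherin list, 12.5% of integrins and 25% of clustered protocadherins, beside 10% of all genes tested. The integrin share was thus near that of all genes. Among 62 axon guidance ligands and receptors, 15 were higher in line 2 and 4 in line 1 (median -0.11, 30.6% called). NEO1 (neogenin), a receptor for netrins, averaged 1928 and 4028, a log2 difference of -1.06 ± 0.04, and wt lay at 3607 to 4260. EPHA7, an ephrin receptor, averaged 255 ± 50.1 and 771 ± 107.

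Epithelial genes leaned to line 1, where 4 of the 10 markers tested were called higher and none lower (median log2 difference 0.24). Over all genes tested 4.81% were called higher in line 1. OVOL2, a repressor of mesenchymal genes, was at 30.2 to 44.4 in line 1 and 3.11 to 5.95 in line 2, and CDH3 is also on this list. ESRP1, a splicing factor of epithelia, averaged 293 ± 78.8 and 195 ± 36.3 with overlapping libraries and a log2 difference of 0.57 ± 0.12 (adjusted p = 0.00969). With 1 mean per line and letter the adjusted p of ESRP1 was 0.0841.

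**Figure D3:**
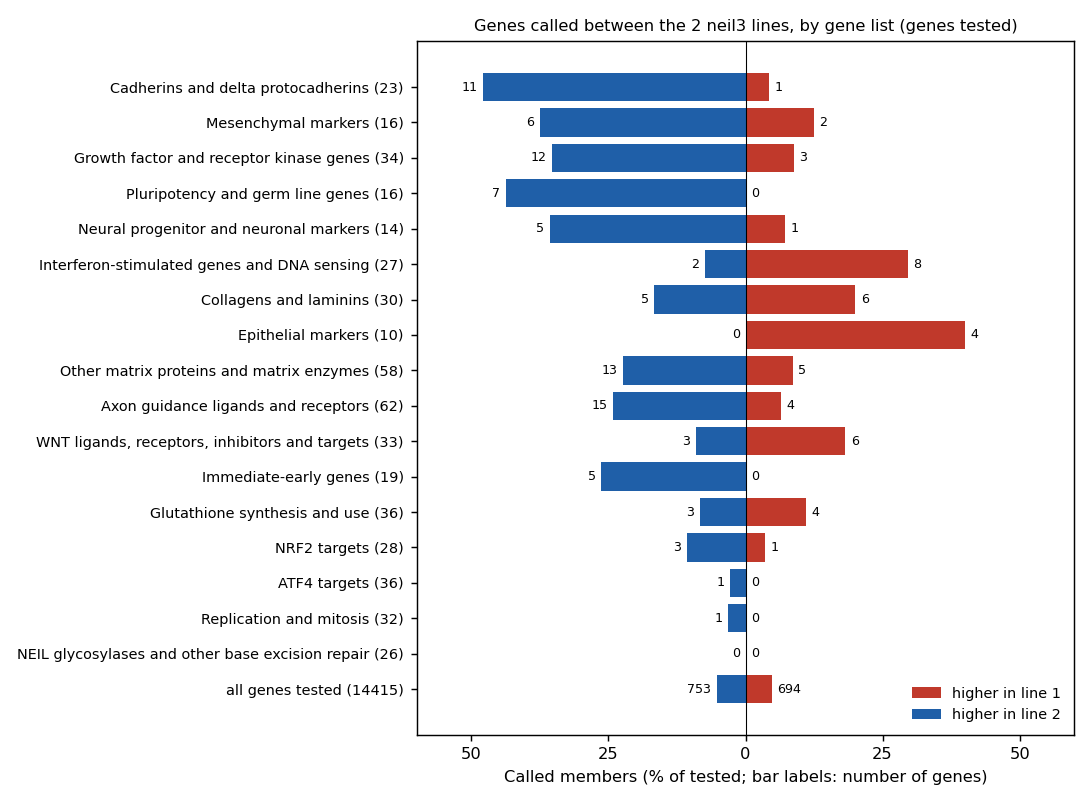
Percent of the tested members of each gene list called higher in line 1 (red, right) or in line 2 (blue, left), with the number of genes at the end of each bar and the number tested in brackets. Cadherins (11 against 1) lean to line 2 and interferon-related genes (8 against 2) to line 1, while 694 and 753 of all 14415 genes were called.

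Genes of early embryonic and germ line cells were higher in line 2 wherever they were called, in 7 of 16 tested (median log2 difference -0.32). That is 43.8%, and 42.9% of the neural markers below were called, beside 10% of all genes tested. PRAME, a cancer-testis antigen, was at 64.4 to 81.9 in line 1 and 481 to 515 in line 2, with wt at 206 to 255. LIN28A, which blocks maturation of let-7 microRNAs, was at 168 and 15 in media and 153 and 12.8 with BSO in line 1. In line 2 LIN28A was at 2495 and 1003 in media and 2408 and 846 with BSO. The A libraries were the higher ones in both lines, and wt ranged from 142 to 2632. The difference of LIN28A was -4.94 ± 0.80 (adjusted p = 0.00205). Of 14 neural markers tested, 5 were higher in line 2, among them MAP2, a microtubule protein of dendrites (25.5 ± 5.04 and 98.4 ± 4.29). The one higher in line 1 was SOX1, a transcription factor of neural progenitors, at 61.4 to 107 against 0 to 1.98.

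Among 15 BMP and TGF-beta ligands tested, 2 were called higher in line 1 and 1 in line 2 (20% called). BMP2, a bone morphogenetic protein, was read at 37.2 and 117 in media and 58.5 and 92.2 with BSO in line 1. In line 2 BMP2 had 1.04 and 1.94 in media and 6.22 and 3.97 with BSO, a log2 difference of 4.21 ± 0.40 (adjusted p = 3.59e-05). Wt spanned 20.2 to 89.9. On the response side of that pathway, SMAD6, an inhibitor induced by BMP signals, averaged 1148 ± 76.4 in line 1 and 913 ± 55.2 in line 2, and NOG (noggin), which binds BMPs outside the cell, 399 ± 64.4 and 613 ± 109. Both were called, at 0.33 ± 0.05 and -0.62 ± 0.12. With 1 mean per line and letter the adjusted p of SMAD6 was 0.0734 and that of NOG 0.0761. Of 26 BMP and TGF-beta receptors, inhibitors and targets, 3 were higher in each line (23.1% called, beside 10% of all genes tested). The median log2 difference of these 26 was -0.10, toward line 2. Whether the response follows BMP2 was not tested.

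In the WNT list 6 of 33 genes tested were higher in line 1 and 3 in line 2 (median log2 difference 0.14). In all 27.3% of this list were called, beside 10% of all genes tested. RSPO3, which strengthens WNT signals, averaged 25.3 ± 8.86 and 4.59 ± 2.79. DKK1, a secreted WNT inhibitor, averaged 1.75 ± 0.975 and 28.6 ± 8.24. Their log2 differences were 2.30 ± 0.40 and -3.45 ± 0.35.

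Interferon-related genes were more often higher in line 1, in 8 of 27 tested, against 2 in line 2 (median log2 difference 0.06). Together 37% were called, beside 10% of all genes tested. PSMB8, a subunit of the immunoproteasome (chromosome 6, 32840717 to 32844679), had 166 and 176 in media and 185 and 207 with BSO in line 1. In line 2 it had 9.38 and 11.7 in media and 5.18 and 8.93 with BSO. The wt libraries, at 56.0 to 129, lay between the lines. The log2 difference of PSMB8 was 4.28 ± 0.22 (adjusted p = 2.27e-07). OAS2, an enzyme that senses double-stranded RNA, averaged 203 ± 16.8 and 74.7 ± 14.3, and IFIH1 (MDA5), an RNA sensor, 28.2 ± 5.01 and 8.58 ± 3.57. STING1, the adaptor of DNA sensing, was the largest difference in the other direction, at 78.1 ± 6.27 and 219 ± 25.3.

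Several genes were near 0 in one line and well expressed in the other, in every library. CHFR, a ubiquitin ligase of the mitotic checkpoint (chromosome 12, 132832356 to 132887618), was read at 5.03 and 0 in media and 6.05 and 2.94 with BSO in line 1. In line 2 it was read at 551 and 408 in media and 547 and 422 with BSO. Wt libraries had 3.92 to 15.6, so for CHFR line 2 stood apart from wt. The mean log2(value + 1) of CHFR was 8.90 in line 2 and 1.76 to 3.43 over the other 9 cell names. BCHE, butyrylcholinesterase (chromosome 3, 165772904 to 165837423), had 1 read over the 4 line 1 libraries and values of 303 to 342 in line 2. Wt libraries had 115 to 256, so for BCHE line 1 stood apart. For such genes the fitted log2 difference, -8.09 ± 0.26 for BCHE and -7.05 ± 0.47 for CHFR, depends on the pseudocount and is no fold.

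Other genes with this pattern and line 2 as the expressing line were ZNF256, a zinc finger repressor (2.25 ± 0.973 against 241 ± 27.8), and LTBR, the lymphotoxin beta receptor (0.503 ± 1.01 against 107 ± 60.1). NMNAT2, an axonal enzyme of NAD synthesis, averaged 2.77 ± 2.24 and 136 ± 10.1, and LBX1, a homeobox gene of muscle and spinal cord, 0.985 ± 1.39 and 76.2 ± 1.1. For ZNF256 and LBX1 the wt libraries (113 to 238 and 50 to 80.5) were nearer to line 2, and for NMNAT2 (median 5.15) nearer to line 1.

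In the opposite direction, FBXO17, an F-box subunit of a ubiquitin ligase (chromosome 19, 38941401 to 38975742), had 744 and 655 in media and 725 and 675 with BSO in line 1. In line 2 FBXO17 had 7.30 and 2.91 in media and 13.5 and 4.96 with BSO, and wt had 3.06 to 13.8. H2AJ, a variant of histone H2A (chromosome 12, 14774405 to 14778002), had 272 to 293 in line 1, 1.98 to 7.25 in line 2 and 355 to 399 in wt. SLC17A9, the vesicular nucleotide transporter, averaged 877 ± 175 in line 1 and 19.2 ± 5.49 in line 2, with wt at 873 to 1476. CNTNAP2, a neurexin-like adhesion protein, averaged 272 ± 27.9 and 2.76 ± 0.865, with wt between them at 88.0 to 121. CYP1B1, an oxidase of the aryl hydrocarbon response, averaged 715 ± 281 and 10.8 ± 6.31. GLP1R, a receptor for a gut hormone, averaged 169.6 ± 17.8 and 4.08 ± 2.24, and ALDH1A2, which makes retinoic acid, 231 ± 36.1 and 5.82 ± 1.94. FBXO17 stood out from wt in line 1, although over the other 9 cell names its mean log2(value + 1) ran from 0.51 to 9.70 and took in both lines, and H2AJ and SLC17A9 stood out from wt in line 2.

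Neither line was the one closer to wt throughout. Of the 26 called genes higher in line 1 by a log2 of 4 or more, the mean of the 8 wt libraries was nearer to line 1 in 20. Of the 25 higher in line 2, it was nearer to line 2 in 18. At a log2 of 1 or more, wt was nearer line 1 in 69 and line 2 in 91 of the 160 higher in line 1. Of the 245 higher in line 2 it was nearer line 2 in 162 and line 1 in 83. The result depended on the wt libraries used. Among the 694 called genes higher in line 1, wt was nearer line 1 in 45.1% with these lettered libraries. With the wt libraries without a letter it was 60.4%. Among the 753 higher in line 2, wt was nearer line 2 in 57.8% and 57.5%. Over the 1447 called genes, line 1 lay outside the range of the other 9 cell names in 677 (46.8%) and line 2 in 459 (31.7%), against 33.3% and 30.6% of all genes tested. The choice of called genes bears on these shares, and so may the libraries without a replicate letter among the 9 names. The difference of the shares was not tested.

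Some differences lay side by side in the genome, and the following groups were picked out after their values were seen. On chromosome 15, all 7 tested neighbours from UBE2Q2P1 to ALPK3 (84527196 to 84873479) were called lower in line 1, at log2 differences of -1.47 to -0.80. SEC11A, the catalytic subunit of the signal peptidase, had 3697 and 3318 in media and 3624 and 3277 with BSO in line 1. In line 2 SEC11A had 7916 and 6997 in media and 8633 and 7283 with BSO, and wt had 6387 to 8032. ZNF592, a zinc finger protein, averaged 2090.4 ± 77.0 and 3972 ± 28.0, at a log2 difference of -0.93 ± 0.04, and NMB (neuromedin B) 361 ± 30.4 and 642 ± 17.6. The genes just outside, GOLGA2P7 and PDE8A, differed by 0.05 and 0.12 and were not called (adjusted p = 0.922 and 0.123). As background, HAP1 carries a fragment of chromosome 15 as an additional copy inserted in another chromosome. DNA copy number of the interval was not tested. With 1 mean per line and letter UBE2Q2P1 had an adjusted p of 0.102.

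**Figure D4:**
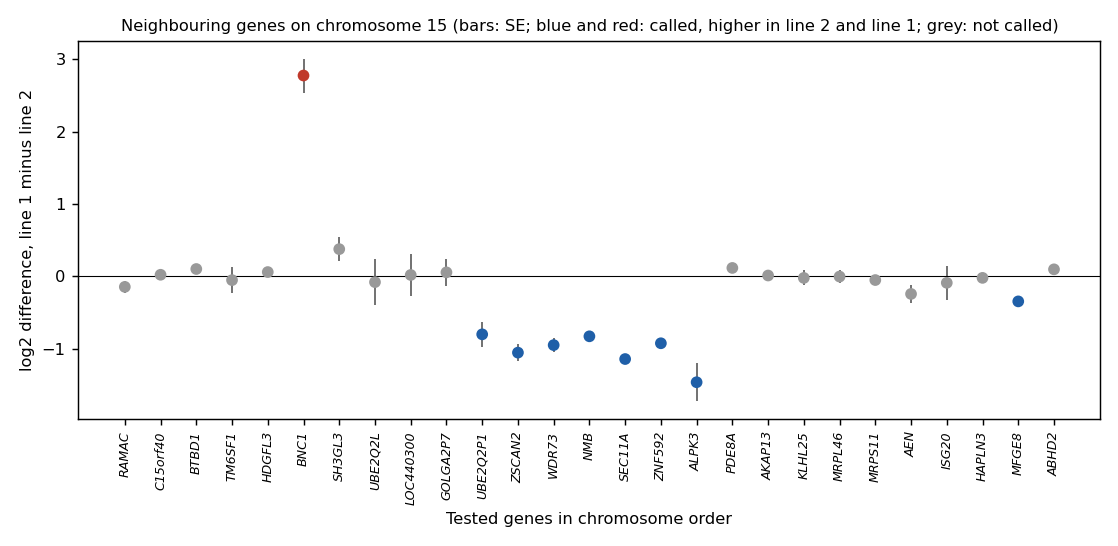
log2 difference, line 1 minus line 2, with its SE, for tested genes in chromosome order around the chromosome 15 group. The 7 genes from UBE2Q2P1 to ALPK3 lie between -1.47 and -0.80, and most genes on either side lie near 0; BNC1 (2.78) and MFGE8 (-0.35) were also called.

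On chromosome 2 the 5 tested neighbours from ITGA4 to PDE1A (181457205 to 182716797) were all higher in line 1, at 0.54 to 3.42. PPP1R1C, a phosphatase inhibitor subunit, averaged 114 ± 6.6 and 9.82 ± 1.69, and ITPRID2 4325 ± 319 and 1908 ± 62.0, with wt near line 2 (13.8 to 26.5 and 1794 to 2198). ITGA4, an integrin chain, overlaps CERKL. The call of CERKL was lost with 1 mean per line and letter (adjusted p = 0.118), in DESeq2 (0.0916) and without line 1 media A, line 1 media B or line 2 media A (0.0503 to 0.0558). The tested gene before the group, UBE2E3, was called in the other direction (-0.20, adjusted p = 0.0107), and the one after it, DNAJC10, was not called. On chromosome 16, IST1, a factor of membrane remodelling (71894408 to 71931199), was at 2931 to 3077 in line 1 and 5330 to 5485 in line 2. It overlaps the end of PKD1L3, a polycystin relative (71929538 to 72000402), at 0 to 2.02 in line 1 and 221 to 318 in line 2. Wt libraries matched line 1 for both, at 2869 to 3265 for IST1 and 2 to 3.92 for PKD1L3. These 2 were part of a group of 4 neighbours called higher in line 2, ATXN1L, ZNF821, IST1 and PKD1L3. IST1 also overlaps ZNF821. The strand setting is not given, so the source of reads in these overlaps, and in that of ITGA4 with CERKL, is uncertain.

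On chromosome 10, the pseudogene RPS3AP37 (68674304 to 68675150) lies within TET1, a DNA demethylase gene (68560337 to 68694487). RPS3AP37 had no read in line 1 and values of 88.6, 54.4, 109 and 122 in line 2, at least 31.2-fold higher against a floor of 3 counts per library. TET1 averaged 2500.3 ± 191 in line 1 and 3471 ± 197 in line 2, at -0.47 ± 0.06 (adjusted p = 0.00022). Reads of the pseudogene can come from its parent gene or from TET1 itself, so its value is uncertain.

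In the HOXC cluster on chromosome 12, HOTAIR, a long noncoding RNA, was at 0 to 4 in line 1 and 206 to 219 in line 2. HOXC11, a homeobox gene it overlaps, averaged 64.5 ± 10.6 and 314 ± 34.0, and HOXC13 569 and 770.3, so these 3 neighbours were higher in line 2. Without strand in the counts, reads of HOTAIR and HOXC11 cannot be told apart where they overlap. HOXC9, in the same cluster, was higher in line 1 (78.0 ± 20.7 and 33.5 ± 7.90), and over 30 HOX genes tested 2 were higher in line 1 and 3 in line 2 (16.7% called, beside 10% of all genes tested). RTL8A on chromosome X averaged 3673 ± 239 and 114 ± 35.2; it has near-identical copies, which makes its count uncertain.

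In all, 23 groups of 3 or more tested neighbours were called in 1 direction. By chromosome, the median log2 difference ran from -0.01 to 0.06 over 24 chromosomes (mitochondrial DNA included) and from -0.14 to 0.17 over 292 windows.

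Of 36 genes of glutathione synthesis and use, 4 were called higher in line 1 and 3 in line 2, so 19.4% were called beside 10% of all genes tested, with a median log2 difference of 0.00. The largest difference among them was that of GSTM3, a glutathione transferase, at 39.2 and 26 in media and 35.3 and 32.4 with BSO in line 1. In line 2 GSTM3 had 339 and 287 in media and 368 and 291 with BSO, and wt lay between them at 92.9 to 178. Its log2 difference was -3.24 ± 0.15 (adjusted p = 1.25e-07). GCLC, the catalytic subunit of the enzyme that BSO blocks, averaged 1968 ± 283 and 1657 ± 190, a difference of 0.24 ± 0.07 at an adjusted p of 0.0492. The libraries of GCLC overlapped. Its call was lost in 5 of the 8 fits without 1 library (adjusted p 0.0926 to 0.142; line 1 media A and BSO A, line 2 media A, media B and BSO B) and with 1 mean per line and letter (0.287). ACSL4, which feeds polyunsaturated lipids into ferroptosis, was called at 0.25 ± 0.05 (adjusted p = 0.00817, and 0.174 with 1 mean per line and letter).

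Not called were GCLM, the modifier subunit (0.03 ± 0.10), GSS (0.05), GSR (-0.04), GPX4, which reduces lipid peroxides (0.14, adjusted p = 0.106), the cystine carrier SLC7A11 (-0.10), NQO1 (0.02), HMOX1 (0.10) and AIFM2 (0.06). Of 28 NRF2 targets 1 was higher in line 1 and 3 in line 2, of 36 ATF4 targets 0 and 1, and of 32 replication and mitosis genes 0 and 1. Called shares were 14.3%, 2.78% and 3.12%, beside 10% of all genes tested. The glucose carriers differed in opposite directions: SLC2A1 averaged 5513 ± 693 and 3814 ± 268, and SLC2A3 107 ± 31.2 and 396 ± 93.0. Of 20 blood cell markers 7 were read highly enough to test, and 2 were called higher in line 1 and 1, KIT, higher in line 2 (42.9% called). TAL1, a transcription factor of early blood cells, was read in all 8 libraries and averaged 1465 ± 64.8 and 727 ± 51.5.

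Among the lists, ATF4 targets held the most genes raised by BSO in both lines. In line 1, 110 genes (0.763%) changed with BSO, 103 upward and 7 downward, and in line 2, 143 (0.992%), 129 upward and 14 downward. With the replicate letter as a block the split was near even, at 933 upward and 822 downward in line 1 and 930 upward and 961 downward in line 2. Of 36 ATF4 targets, genes induced when amino acids or redox balance fail, 25 rose in line 1 and 28 in line 2, and of 28 NRF2 targets 7 and 11. HMOX1, heme oxygenase, had 702 and 538 in media and 3500 and 2336 with BSO in line 1. In line 2 HMOX1 had 563 and 489 in media and 3381 and 2550 with BSO. It rose by a log2 of 2.22 ± 0.20 and 2.48 ± 0.20 (adjusted p = 0.00159 and 0.000626). SLC7A11 rose by 1.38 ± 0.20 and 1.52 ± 0.20, and NQO1, a quinone reductase, by 0.99 ± 0.16 and 1.12 ± 0.16. GCLM changed by 0.55 ± 0.15 and 0.70 ± 0.15, a rise in both lines. It did not pass in either line in this limma fit, which leaves out the replicate letter (adjusted p = 0.202 and 0.0736).

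The difference of the BSO responses was called for no gene (0% of 14415) in limma or edgeR, with 110 genes at an unadjusted p under 0.05 in limma. That is below the 0.05 share expected with no difference at all. This fit leaves out the replicate letter, and with the letter as a block 564 genes were under 0.05. The lack of calls therefore does not show that the lines respond alike. DESeq2 called 1, ND6, and the replicate block 3, ATP8, ND6 and CCZ1B, named because of these calls. ATP8, a mitochondrially encoded subunit of ATP synthase, had 2901 and 3688 in media and 5144 and 7600 with BSO in line 1. In line 2 ATP8 had 4466 and 3982 in media and 4015 and 4079 with BSO. With the block the difference of its changes was 0.99 ± 0.08 (adjusted p = 1.54e-06); without it the SE was 0.23 and ATP8 was not called. The share of reads on the 13 mitochondrial genes was 1.99% and 2.32% in media and 3.30% and 3.35% with BSO in line 1, and 2.34% and 2.31% against 2.68% and 3.11% in line 2. Its part in the ATP8 and ND6 values was not tested.

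**Figure D5:**
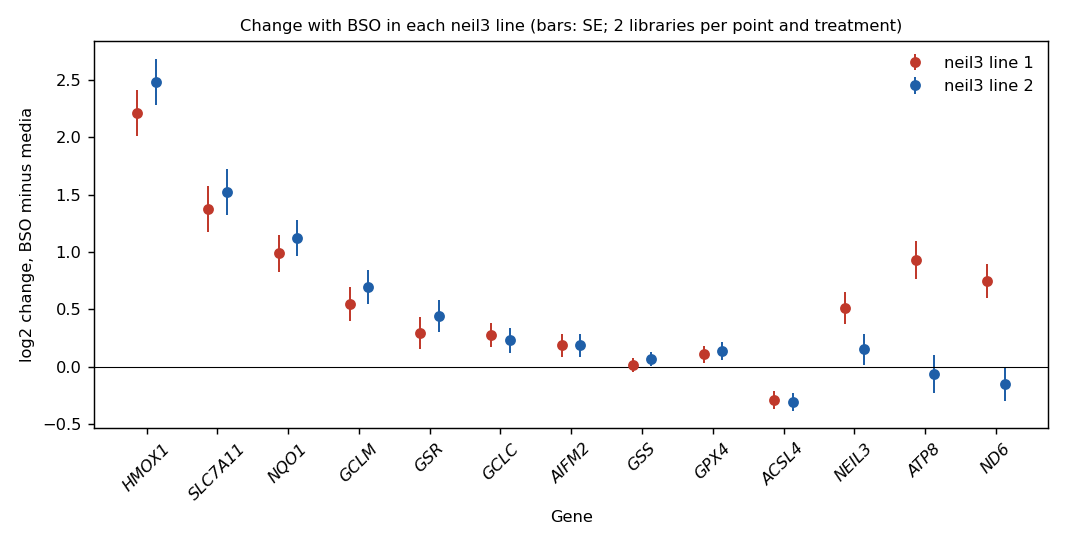
log2 change from media to BSO, with its SE, in line 1 (red) and line 2 (blue) for redox genes, NEIL3, ATP8 and ND6. HMOX1 rose by 2.22 and 2.48 in the lines, and ATP8 changed by 0.93 and -0.06.

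The BSO counts rest on 2 libraries per line and treatment. With the replicate letter as a block they were 1755 in line 1 and 1891 in line 2; without line 1 media A or BSO A the line 1 count fell to 25 or 26, and without line 2 media A, BSO A, media B or BSO B the line 2 count fell to 25, 26, 44 or 44.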

How the data were processed

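RNA of HAP1 cells was sequenced in 42 libraries. The table holds deposited normalized read counts, a depth-scaled signal per gene made by the authors; per the submitters' processing notes the tools were Trim Galore, HISAT2, SAMtools, featureCounts and DESeq2 with the build GRCh38 (hg38). Tool versions and the strand setting: not given in the sources used here. Each column is a whole-number count times 1 factor, so reads were recovered for the count tests (tolerance 1e-06). Entries without a gene symbol (9667 of 30182; 1.03% to 1.21% of reads in the neil3 libraries) were left out. Genes whose mean over the 8 neil3 libraries reached 10 were tested on log2(value + 1) with limma 3.58.1 in R 4.3.3, with line and treatment as terms, Benjamini-Hochberg adjustment and a threshold of 0.05. BSO changes came from a fit of the 4 means of line and treatment. Fold changes on this scale understate low genes. The alternatives include edgeR 4.0.16 and DESeq2 1.42.0 on recovered reads, the replicate block and leaving out each library. The letters pair the libraries: deviations of same-lettered libraries correlated at 0.285 to 0.391 over genes between all groups of line and treatment, and the letters are labelled biological replicates, with no source stated. P-values measure the spread between these libraries. The main fit leaves out the pairing and treats the 4 libraries of a line as independent. With 1 mean per line and letter 614 genes were called, against 1447 in the main fit. Libraries A and B differed by more than counting noise and were kept apart. Named genes are NEIL1 to NEIL3, up to 4 called genes per list, 10 redox genes, and the 15 largest called differences in each direction. The last were taken among genes with a mean of 50 or more and no overlap between the libraries of the lines. Others, RTL8A, GFRA1 and ANKRD1 among them, were picked after their values were seen. The comparison and the gene lists were chosen with earlier results of these data known. The fits were checked on simulated data. Positions are RefSeq, GRCh38.p14.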

Additional observations from a re-analysis of the deposited data

How the results depend on the processing

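The count between the neil3 lines (1447) was 3212 with the replicate block, 899 with line and letter as a random block, 614 with 1 mean per line and letter, 445 in media alone and 449 with BSO alone, and 1027 to 1276 without 1 library. The cause of these shifts and of those below was not tested. Between wt 1.1 and wt 1.3 (7) it was 93 with the replicate block, 1 with the random block, 0 with means, 0 in media, 1 with BSO, 19 in DESeq2 and 1 to 5 without 1 library. Between the triple-knockout lines (834) it was 433 in a fit of all libraries, 2097 with the replicate block, 445 with the random block, 268 with means, 239 in media, 164 with BSO and 505 to 838 without 1 library.

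Genes changed by BSO numbered 55 and 91 with no filter (line 1 and line 2), 229 and 270 in a fit of all libraries, 1755 and 1891 with the replicate block, and 222 and 252 in DESeq2. Without 1 library they ran from 25 to 81 in line 1 and 25 to 165 in line 2. The difference of the responses (0) was 3 with the replicate block and 1 in DESeq2. NEIL3 (-0.33, not called) was called in a fit of all libraries (-0.33), with the replicate block (-0.33), in media (-0.51) and in DESeq2 (-0.32), and ran from -0.45 to -0.27 without 1 library.

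Uncalled genes near 0 changed sign. NEIL1 was -0.0452 with BSO alone, -0.00285 at equal totals, -0.00433 in edgeR and -0.00252 in DESeq2. GCLM was -0.0416, NQO1 -0.0486 and HMOX1 -0.0383 with BSO alone, and GSR 0.037 in media. Without 1 library, NEIL1 ran from -0.0535 to 0.0878, GCLM from -0.0315 to 0.127, GSR from -0.0932 to 0.0497, SLC7A11 from -0.229 to 0.0577, NQO1 from -0.0582 to 0.113 and HMOX1 from -0.00786 to 0.239. No called named gene changed sign in any alternative run, but many lost their call. Of 143 called named genes, 47 lost it with 1 mean per line and letter and 29 with the random block. In media alone 63 lost it, and with BSO alone 62.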

Other observations

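The replicate letters also separated genes, in a fit with line, treatment and letter chosen after seeing the data. Of the 14415 genes, 4077 were called between A and B (limma, adjusted p under 0.05), 2281 higher in A and 1796 higher in B. Of these 4077, 390 were also called between the lines, near the share over all genes (1447 of 14415, 10%). The 1447 come from the fit without the letter, while 3212 were called between the lines with it. The shares thus rest on unlike fits and do not tell whether letter and line differences are related. GFRA1, a receptor for GDNF, averaged 144 in the A and 13.9 in the B libraries of line 1, and 256 and 62.2 in those of line 2, at a log2 difference of 2.69 ± 0.21. ANKRD1, a target of the Hippo pathway, averaged 81.1 and 9.38 in line 1 and 499 and 106 in line 2, at 2.63 ± 0.17. LIN28A (2.43), POSTN (2.29), CYP1B1 (1.24), PDGFRA (1.06) and THY1 (0.98) were likewise higher in A in both lines, whichever line had the higher level.

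Other gene groups were called in part between the neil3 lines. None of the 19 immediate-early genes tested was higher in line 1 and 5 were higher in line 2, among them EGR1 (-0.64) and EGR2 (-1.46), transcription factors induced by growth signals. That is 26.3% called, beside 10% of all genes tested. Of 420 zinc finger (ZNF) genes, 8 were higher in line 1 and 21 in line 2, so 6.9% were called beside 10% of all genes. GATA4, a transcription factor of heart and endoderm, was higher in line 1 by a log2 of 2.79, and 1 other of the 5 endoderm and liver markers tested, CDX2, was also called higher in it (0.62). The called share of these 5 was 40%. Of 27 imprinted genes 2 were called (7.41%, under the share of all genes), DLK1 and PLAGL1, lower in line 1 at -1.47 and -1.14.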
